A study of Mus musculus with 8 samples.

Results

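Hepatic stellate cells store vitamin A as retinyl esters and, once activated, turn into contractile, matrix-producing cells. The extracellular matrix they and their neighbours lay down consists of fibrillar collagens, a basement membrane network of collagen IV and laminin, linking microfibrils and glycoproteins, and the enzymes that cross-link and cut them. Partial hepatectomy is an operation after which the remnant liver regrows, and in that time this matrix is rebuilt around dividing hepatocytes and new vessels. The genes examined here were a list of 40 stellate cell and matrix genes, read by probes whose RefSeq transcript belongs to them, with the brightest probe standing for each gene. A probe was matched for 37 of the 40, among 18316 genes with a named probe, and no match was found for Col6a3, Lox and Lamc1. All 37 entered the tests, which covered 14141 genes.

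RNA of mouse liver was measured on 8 Agilent 1-colour arrays, 1 for each genotype and time. The Mxcre+ livers, described by the submitters as lacking Survivin, and the Mxcre- livers, described as wild type, were each sampled at 0, 24, 36 and 48 h after the operation. Mxcre is a Cre recombinase driven by the interferon-responsive Mx promoter, which poly(IC) switches on in liver and also in other cells. All mice, of either genotype, were of strain 129/SV/B6, and each had undergone irradiation, bone marrow transplantation and poly(IC) treatment. The labels assign no sex to a sample and state neither age nor whether RNA was pooled. A protocol note places the analysis 1 week later, whereas the titles give the hours used here.

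Each level is the log2 intensity of a probe minus the log2 of its array's 75th percentile, so that a level of 0 is that percentile, and a difference of 1 is a doubling of the normalised intensity. Differences were tested with limma in 1 additive model of genotype and time over the 8 arrays, with 3 residual degrees of freedom. The threshold for a call was an adjusted p of 0.05 or less, by Benjamini and Hochberg over the 14141 genes. Since no genotype and time had a second array, these p-values measure how steady a difference was over times or between genotypes, not the spread between animals, and the 3 comparisons with 0 h share the same 2 arrays at 0 h. Birc5, which encodes Survivin, had levels of -2.80, -3.49, -1.58 and -1.20 at 0, 24, 36 and 48 h in Mxcre+ livers, against -0.25, -0.55, 1.53 and 5.03 in Mxcre- livers. The Y-linked genes averaged -6.09, -1.37, -6.47 and -6.63 in Mxcre+ livers, against -6.39, -0.86, -1.56 and -0.76 in Mxcre- livers, so that they were near background in both livers at 0 h and in the Mxcre+ livers at 36 and 48 h. The arrays at 0 and 24 h lay on 1 slide and those at 36 and 48 h on another, and between slides the slide and the time cannot be told apart.

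Of the 37 genes, 35 were well above background on all 8 arrays. Col5a2 was so on 7 arrays, the exception being Mxcre- liver at 0 h, and Thbs1 on 3, the Mxcre- livers at 24, 36 and 48 h. Stellate cell markers were present: 18 of 20 listed genes were above background on all 8 arrays, Gfap on 1 array, and Tmem56 was not matched to a probe. In whole liver a change in the number of a cell type and a change in RNA per cell cannot be told apart.

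Calls among the matrix genes came with time after the operation and were mostly upward, while none came between genotypes. At 24 h against 0 h, 7 of the 37 genes were called higher, against 4.43% of all genes tested, and 1 was called lower, against 5.26%. At 36 h the counts were 12 higher, against 7.83%, and 1 lower, against 8.64%. At 48 h they were 12 higher, against 8.13%, and 1 lower, against 9.6%. The higher counts include Thbs1, which entered the tests through Mxcre- arrays alone, and without it they were 6, 11 and 11 of 36. With centring on the array median the shares of all genes called higher were 6.23%, 13.2% and 11.6%, and those called lower 4.38%, 5% and 6.14%, while 8, 14 and 13 members were called higher. The median difference of the 37 genes was 0.52 at 24 h, 0.60 at 36 h and 0.61 at 48 h, beside -0.03, -0.06 and -0.08 over all genes tested. In the test of any change over the 4 times 10 of 37 genes were called, against 9.98%, and 9 of 36 without Thbs1. Both 0 h levels lay below all 6 later ones for 17 genes, against 18.1% of all genes, and above them for 4 (Col14a1, Col18a1, Lrat and Reln), against 22.4%, a count below the background share.

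**Figure D1:**
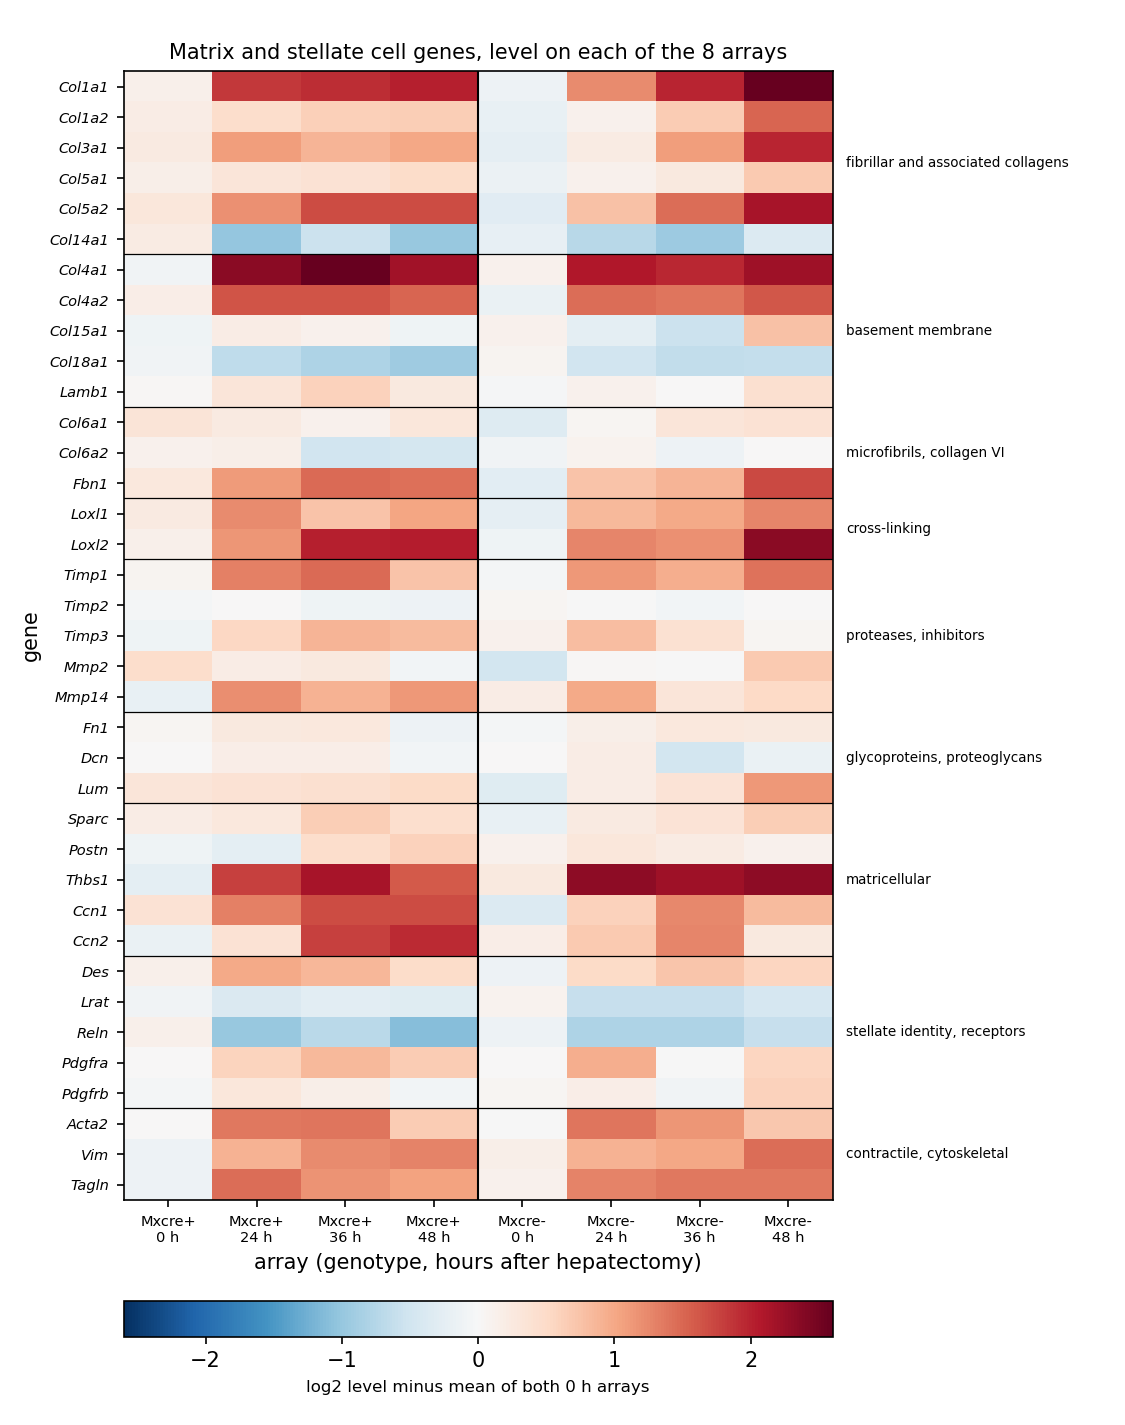
Level of each of the 37 genes (rows, grouped by role) on each of the 8 arrays (columns, Mxcre+ left of Mxcre-), as the log2 level minus the mean of both 0 h arrays. Red marks a level above that mean and blue a level below it, and the rows of Col4a1, Col4a2, Acta2 and Tagln are red on all 6 later arrays while Col18a1, Col14a1, Lrat and Reln are blue on them.

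The calls rested on few arrays. With any 1 of the 0 h or 24 h arrays left out, 0 members were called at 24 h, and leaving out a 36 h or 48 h array left 3 to 5; the count over all genes fell with it, to between 0 and 519, against 1370 with all 8 arrays. At 36 h the count was 0 without any 1 of the 0, 24 or 36 h arrays and 10 without either 48 h array. At 48 h it was 0 without the Mxcre+ 0 h array or the Mxcre- 48 h array, 4 without the Mxcre- 0 h array, 5 without the Mxcre+ 48 h array and 8 to 11 otherwise. The count over all genes also fell in each of these fits at 36 and 48 h. No called member changed its sign in any of these fits. The Y-linked level was higher at 24 h than at 0 h in both genotypes, and with that level as a covariate no member was called at 24 h and 8 were called at each of 36 and 48 h. In that fit the 24 h differences were 1.45 ± 0.23 for Acta2, 2.53 ± 0.48 for Col4a1, 1.17 ± 0.27 for Tagln and 1.05 ± 0.28 for Vim (SE, adjusted p = 0.116, 0.127, 0.148 and 0.167), and 1 of all genes was called, against 1370 without the covariate. The Mxcre+ livers at 0, 36 and 48 h all had Y-linked levels near background. Within them the members at 36 h minus 0 h ranged from -0.83 for Reln to 2.92 for Col4a1, with Tagln at 1.30. Each side is a single array, on different slides, and the part of the Y-linked level was not tested.

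Among the basement membrane genes both chains of collagen IV rose. Col4a1 and Col4a2 encode the 2 chains of the main collagen IV molecule, which forms the network of every basement membrane, and they are transcribed in opposite directions from a shared promoter. The promoter windows of RefSeq (GRCm38.p6, 250 bases before to 50 after each start site) are shown because the 2 genes moved together. Their start sites lie 21 bases apart, and 78 bases, given in capitals, are common to both windows as reverse complements. Col4a1 is on the minus strand at chr8:11312777-11313076 and Col4a2 on the plus strand at chr8:11312555-11312854.
Col4a1: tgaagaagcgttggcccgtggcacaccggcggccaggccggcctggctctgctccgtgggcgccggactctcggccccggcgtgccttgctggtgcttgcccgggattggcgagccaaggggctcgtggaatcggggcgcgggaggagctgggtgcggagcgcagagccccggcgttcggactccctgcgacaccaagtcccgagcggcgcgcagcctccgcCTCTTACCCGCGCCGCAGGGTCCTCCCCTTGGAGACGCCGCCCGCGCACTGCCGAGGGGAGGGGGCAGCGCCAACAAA
Col4a2: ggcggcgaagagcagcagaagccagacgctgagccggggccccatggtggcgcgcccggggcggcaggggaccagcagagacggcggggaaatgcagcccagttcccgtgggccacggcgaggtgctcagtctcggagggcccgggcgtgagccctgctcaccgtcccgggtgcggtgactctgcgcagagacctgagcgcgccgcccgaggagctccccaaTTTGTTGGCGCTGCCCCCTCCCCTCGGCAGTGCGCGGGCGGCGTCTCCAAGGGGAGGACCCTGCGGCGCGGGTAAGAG

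Col4a1 had levels of -0.29, 2.15, 2.63 and 1.99 at 0, 24, 36 and 48 h in Mxcre+ livers, against -0.08, 1.89, 1.77 and 2.01 in Mxcre- livers. Col4a2 had levels of 0.12, 1.58, 1.58 and 1.46 in Mxcre+ livers, against -0.24, 1.39, 1.33 and 1.55 in Mxcre- livers. For both genes every later array was above both 0 h arrays, and most of the rise was present at 24 h. Relative to 0 h, Col4a1 rose by 2.21 ± 0.28 at 24 h, 2.39 ± 0.28 at 36 h and 2.19 ± 0.28 at 48 h (SE, adjusted p = 0.0244, 0.0191 and 0.0159). Col4a2 rose by 1.55, 1.52 and 1.57, each ± 0.15 (SE, adjusted p = 0.019, 0.0177 and 0.0112). A second probe above background on all arrays gave 1.87, 1.81 and 1.66 for Col4a1 and 1.38, 1.40 and 1.22 for Col4a2.

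Col18a1, whose product carries the endostatin fragment and is made by hepatocytes as well as other liver cells, was the 1 member called lower. Its levels were 7.62, 7.05, 6.90 and 6.78 at 0, 24, 36 and 48 h in Mxcre+ livers, against 7.79, 7.22, 7.07 and 7.10 in Mxcre- livers. Both genotypes were lower at each later time, by 0.57 to 0.84 in Mxcre+ livers. It fell by 0.57 at 24 h, 0.72 at 36 h and 0.77 at 48 h, each ± 0.12 (SE, adjusted p = 0.0494, 0.0279 and 0.0201), and its second probe gave -0.67, -0.86 and -0.84. The call at 24 h was lost with the deposited matrix or with centring on the median of the array, which gave 8 members called higher and 0 lower at that time. The call at 48 h was lost with the deposited matrix (-0.48, adjusted p = 0.0528), that at 24 and 36 h with no filter (adjusted p = 0.0889 and 0.0516), and all 3 with the Y-linked covariate (adjusted p = 0.187, 0.0549 and 0.0514). Lamb1, a laminin chain, and Col15a1, a basement membrane collagen close in structure to Col18a1, were not called, with differences of -0.23 to 0.34 at the 3 times.

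All 3 contractile and cytoskeletal genes were called higher at every later time. Acta2 encodes smooth muscle actin, the standard marker of an activated stellate cell and of vascular smooth muscle, and Tagln an actin-binding protein of the same cells. Acta2 had levels of 2.30, 3.67, 3.68 and 2.94 at 0, 24, 36 and 48 h in Mxcre+ livers, against 2.28, 3.68, 3.43 and 2.99 in Mxcre- livers. With this brightest probe the 2 genotypes were within 0.26 of each other at all 4 times, and both were lower again at 48 h. Relative to 0 h Acta2 rose by 1.39 at 24 h, 1.27 at 36 h and 0.68 at 48 h, each ± 0.13 (SE, adjusted p = 0.0179, 0.0178 and 0.0336). From 36 to 48 h its difference was -0.59 ± 0.13 (SE, adjusted p = 0.35), the smallest p among the members in that comparison. There 0 members were called, against 0.106% of all genes. An unadjusted p under 0.05 was reached by 1 of 37 members, against 1272 of 14141 genes. A second Acta2 probe above background on all arrays gave 0.85, 1.11 and 1.19 relative to 0 h, without the lower value at 48 h. Its Mxcre+ minus Mxcre- difference, averaged over the 4 times, was -0.48, against 0.06 for the brightest probe.

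Tagln had levels of 2.16, 3.74, 3.46 and 3.33 in Mxcre+ livers, against 2.41, 3.57, 3.67 and 3.66 in Mxcre- livers. It rose by 1.37, 1.28 and 1.20 at 24, 36 and 48 h, each ± 0.16 (SE, adjusted p = 0.0238, 0.0218 and 0.0174), and stayed above both 0 h levels throughout. Vim, the intermediate filament protein of mesenchymal cells, had levels of 0.89, 1.93, 2.25 and 2.32 in Mxcre+ livers, against 1.18, 1.94, 2.03 and 2.49 in Mxcre- livers. It was highest at 48 h in both genotypes. Vim rose by 0.90, 1.11 and 1.37, each ± 0.16 (SE, adjusted p = 0.0389, 0.025 and 0.0142).

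The matricellular genes encode secreted proteins that act on cells rather than build fibres. Ccn1 (Cyr61) and Ccn2 (Ctgf) are targets of Yap with its DNA-binding partners of the TEAD family, Thbs1 encodes thrombospondin 1, an activator of latent TGF beta, and Sparc and Postn bind collagen. Ccn1 had levels of -1.23, -0.30, 0.09 and 0.09 at 0, 24, 36 and 48 h in Mxcre+ livers, against -1.96, -1.0, -0.35 and -0.78 in Mxcre- livers. It was higher after the operation in both genotypes, by 0.94 at 24 h, 1.46 at 36 h and 1.25 at 48 h, each ± 0.15 (SE, adjusted p = 0.031, 0.0177 and 0.0141). Thbs1 had levels of -6.77, -4.74, -4.37 and -4.91 in Mxcre+ livers, against -6.25, -4.18, -4.30 and -4.19 in Mxcre- livers. Its fitted differences were 2.05, 2.18 and 1.97, each ± 0.19 (SE, adjusted p = 0.0179, 0.0162 and 0.0105), but neither 0 h array was well above background. With the 0 h arrays set at the background level Thbs1 was 1.05-fold higher at 24 h and 1.15-fold higher at 36 h, and not higher at 48 h. These values are no firm lower bounds, since 1 array at each later time was above background. Its 2 other probes were not above background on any array, and with normexp correction the differences were 0.13, 0.13 and 0.09 (adjusted p = 0.193, 0.167 and 0.331). Sparc and Postn, at 0.02 to 0.53, were not called, nor was Ccn2, at 0.52 ± 0.54, 1.52 ± 0.54 and 1.09 ± 0.54 (SE, adjusted p = 0.559, 0.112 and 0.211), where the genotypes parted at 48 h as described below.

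Promoter windows of 24 of the 37 genes were in the RefSeq table, and 7 of them (Acta2, Ccn1, Col18a1, Col3a1, Col6a2, Lrat and Timp1) held the TEAD letters GGAATG on either strand, against 14.7% of 32851 windows of the same length. The windows of Acta2 and Ccn1, both called at all 3 times, are shown with that match in capitals, from -146 to -141 in Acta2 and, on the other strand, from -103 to -98 in Ccn1, counted from the start site. Col18a1, which fell, also held a match. The CArG box, bound by serum response factor, was searched by its strict consensus on both strands and matched 0 of the 24 genes, against 1.63% of all windows. That consensus takes CC and GG around a run of A or T, with no mismatch. The Acta2 window holds ccctatatgg and ccttgtttgg, each 1 letter off, so 0 matches do not mean that such a box is absent. The AP-1 letters TGANTCA matched 1 gene, Col6a1, against 7.81% of all windows. Members were counted by gene, with a match in any window of the gene, while the shares of all are by window. The units therefore differ. A match is a run of letters and was not tested as a binding site, and the windows reach no further than 250 bases before the start. Acta2 is on the minus strand at chr19:34255324-34255623 and Ccn1 on the minus strand at chr3:145649936-145650235.
Acta2: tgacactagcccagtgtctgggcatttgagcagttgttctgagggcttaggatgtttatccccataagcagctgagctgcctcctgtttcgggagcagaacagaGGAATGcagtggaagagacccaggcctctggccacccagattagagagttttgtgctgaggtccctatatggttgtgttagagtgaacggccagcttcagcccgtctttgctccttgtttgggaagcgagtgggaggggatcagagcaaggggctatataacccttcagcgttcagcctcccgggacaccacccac
Ccn1: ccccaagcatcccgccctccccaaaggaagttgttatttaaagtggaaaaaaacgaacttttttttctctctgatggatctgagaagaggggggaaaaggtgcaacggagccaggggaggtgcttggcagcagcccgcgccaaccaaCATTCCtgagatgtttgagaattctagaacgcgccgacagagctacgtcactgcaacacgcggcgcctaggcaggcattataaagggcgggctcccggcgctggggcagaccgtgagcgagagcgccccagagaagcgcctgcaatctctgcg

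**Figure D2:**
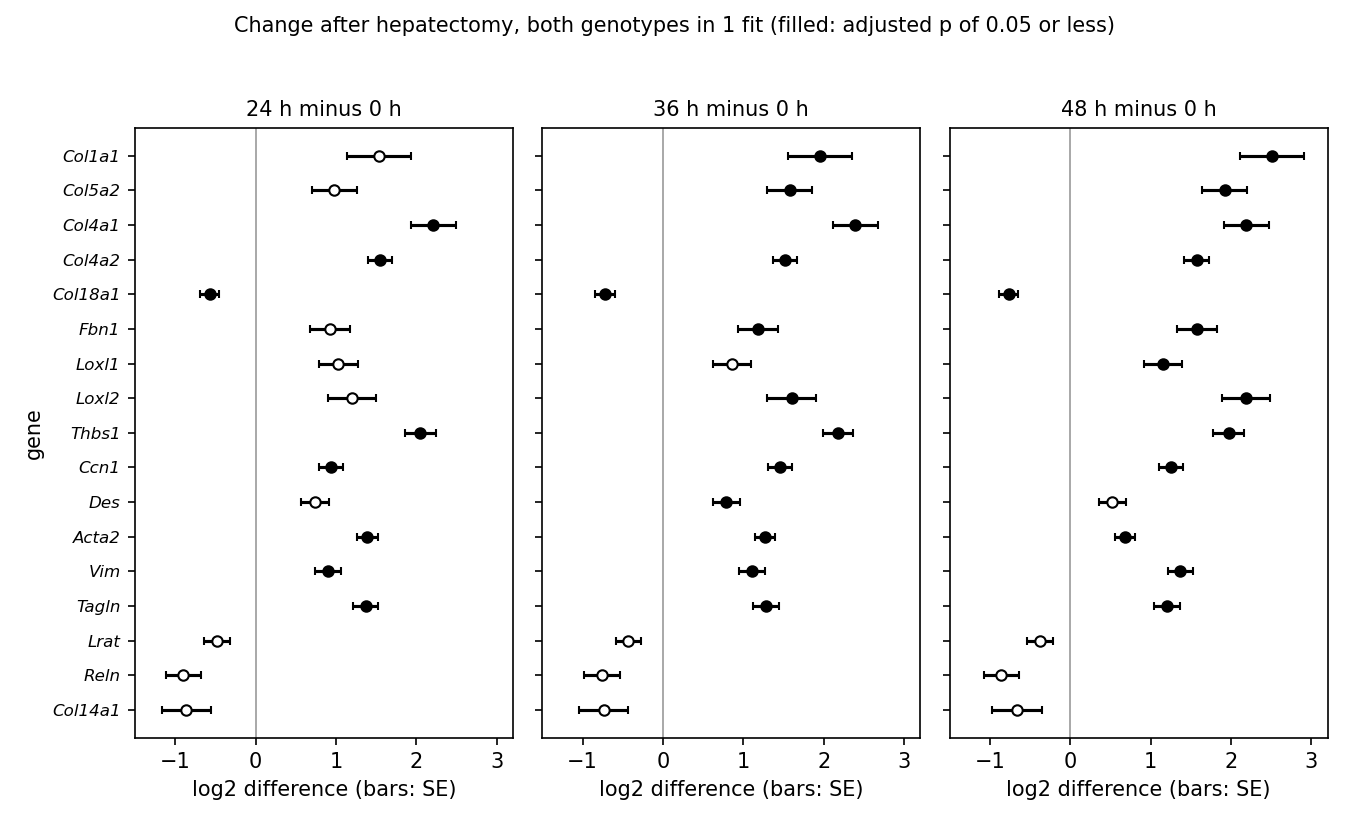
Log2 difference from 0 h at 24, 36 and 48 h for the 14 genes called at any time and for Lrat, Reln and Col14a1, from the additive limma fit of all 8 arrays. Points are estimates, bars are SE and filled points passed an adjusted p of 0.05. Col4a1 stands at 2.21, 2.39 and 2.19, and Col1a1 is filled from 36 h on.

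The fibrillar collagens were called later than collagen IV, although no test compared the courses. The time of a first call also depends on the SE. At 24 h Col1a1 stood at 1.54 ± 0.40, beside 1.55 ± 0.15 for Col4a2 (SE), while the median of the fibrillar group was 0.47. None of the 6 genes of the fibrillar and fibril-associated group was called at 24 h, and the same 2, Col1a1 and Col5a2, were called at both later times. Col1a1, a chain of type I collagen, had levels of -1.42, 0.29, 0.36 and 0.47 at 0, 24, 36 and 48 h in Mxcre+ livers, against -1.69, -0.32, 0.43 and 1.45 in Mxcre- livers. Its difference from 0 h was 1.54 ± 0.40 at 24 h, 1.95 ± 0.40 at 36 h and 2.51 ± 0.40 at 48 h (SE, adjusted p = 0.075, 0.0394 and 0.0218). In Mxcre+ livers the 3 later levels of Col1a1 were within 0.18 of each other, while in Mxcre- livers each level was above the one before. Col5a2, a chain of type V collagen, which starts type I fibrils, had levels of -3.61, -2.72, -2.20 and -2.21 in Mxcre+ livers, against -4.19, -3.13, -2.44 and -1.75 in Mxcre- livers. It stood 0.98 ± 0.28, 1.58 ± 0.28 and 1.92 ± 0.28 above 0 h (SE, adjusted p = 0.0897, 0.0314 and 0.0189), with 1 of the 2 arrays at 0 h above background. Col1a2 and Col3a1 were not called, at 1.08 ± 0.35 and 1.49 ± 0.46 at 48 h (SE, adjusted p = 0.0934 and 0.0862). Col5a1 was at 0.22 to 0.58, and its second probe pointed the other way, at -0.05, -0.83 and -0.51. Col14a1, a collagen that sits on the surface of fibrils, was lower on every later array than on both 0 h arrays, at -0.86, -0.74 and -0.66, and was not called (adjusted p = 0.143, 0.151 and 0.191).

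Among genes for cross-linking and for microfibrils, Loxl2, Loxl1 and Fbn1 were called, from 36 or 48 h on. Their differences were already 0.93 to 1.20 at 24 h. The time of a first call is not the time of a rise, and no test compared the courses. Loxl2, a lysyl oxidase that cross-links collagen, had levels of -1.22, -0.20, 0.67 and 0.70 in Mxcre+ livers, against -1.47, -0.08, -0.17 and 0.99 in Mxcre- livers. It stood 1.20, 1.60 and 2.19 above 0 h at 24, 36 and 48 h, each ± 0.30 (SE, adjusted p = 0.071, 0.0346 and 0.0176), and a second probe gave 0.90, 1.23 and 1.92. Loxl1, which cross-links elastin, was called at 48 h alone, at 1.15 ± 0.24 (SE, adjusted p = 0.0397), after 1.03 at 24 h and 0.86 at 36 h. Fbn1, the main microfibril protein, had levels of -3.50, -2.68, -2.31 and -2.34 in Mxcre+ livers, against -4.06, -3.03, -2.89 and -2.07 in Mxcre- livers. Every later level of Fbn1 lay above both 0 h levels, and the difference was 0.93, 1.18 and 1.58, each ± 0.25 (SE, adjusted p = 0.0812, 0.0416 and 0.0217). A second Fbn1 probe, above background on 7 arrays, gave smaller differences of 0.25, 0.51 and 0.35. Col6a1 and Col6a2, chains of the beaded collagen VI filaments, were not called, with differences of -0.32 to 0.33.

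The proteases and their inhibitors had no call. Timp1, which inhibits matrix metalloproteinases, was 1.22 ± 0.30, 1.20 ± 0.30 and 1.07 ± 0.30 above 0 h (SE, adjusted p = 0.0698, 0.0563 and 0.0703), with both 0 h arrays below all 6 later ones. A second Timp1 probe, above background on 6 arrays, gave 2.96, 2.94 and 2.64. Mmp14, a membrane-bound collagenase that activates Mmp2, was at 1.09, 0.60 and 0.82. Timp2, Timp3 and Mmp2 were between -0.11 and 0.67 at the 3 times. The abundant glycoproteins Fn1, Dcn and Lum, which coat or space collagen fibrils and hold cells to the matrix, were between -0.15 and 0.81 and were not called.

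Among the 5 genes of stellate cell identity and its receptors, 1 call was made, for Des. Lrat, which esterifies retinol for storage, had levels of -0.98, -1.25, -1.15 and -1.20 at 0, 24, 36 and 48 h in Mxcre+ livers, against -0.78, -1.47, -1.47 and -1.32 in Mxcre- livers. Reln, the secreted protein reelin, had levels of 2.43, 1.32, 1.60 and 1.19 in Mxcre+ livers, against 2.17, 1.49, 1.49 and 1.71 in Mxcre- livers. Both genes were lower on all 6 later arrays than on either 0 h array, and neither passed the test, with Reln at -0.90, -0.76 and -0.86, each ± 0.22 (SE, adjusted p = 0.0683, 0.0767 and 0.0587), and Lrat at -0.48, -0.43 and -0.38, each ± 0.16 (SE, adjusted p = 0.132, 0.13 and 0.168). Des, the muscle-type intermediate filament of quiescent and activated stellate cells in rodents, had levels of -3.36, -2.52, -2.64 and -3.02 in Mxcre+ livers, against -3.64, -3.00, -2.77 and -2.95 in Mxcre- livers. It was called higher at 36 h alone, at 0.79 ± 0.17 (SE, adjusted p = 0.0421), with 0.74 ± 0.17 at 24 h and 0.52 ± 0.17 at 48 h (SE, adjusted p = 0.058 and 0.094). Pdgfra and Pdgfrb, the receptors for the stellate cell mitogen PDGF, were not called, at 0.03 to 0.76. Over the list of stellate cell markers, which holds Lrat, Reln, Des and Pdgfrb, 2 of 18 tested genes were called higher and 1 lower at 24 h, then 3 and 2 at 36 h, then 2 and 2 at 48 h, with medians of -0.45, -0.47 and -0.48.

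**Figure D3:**
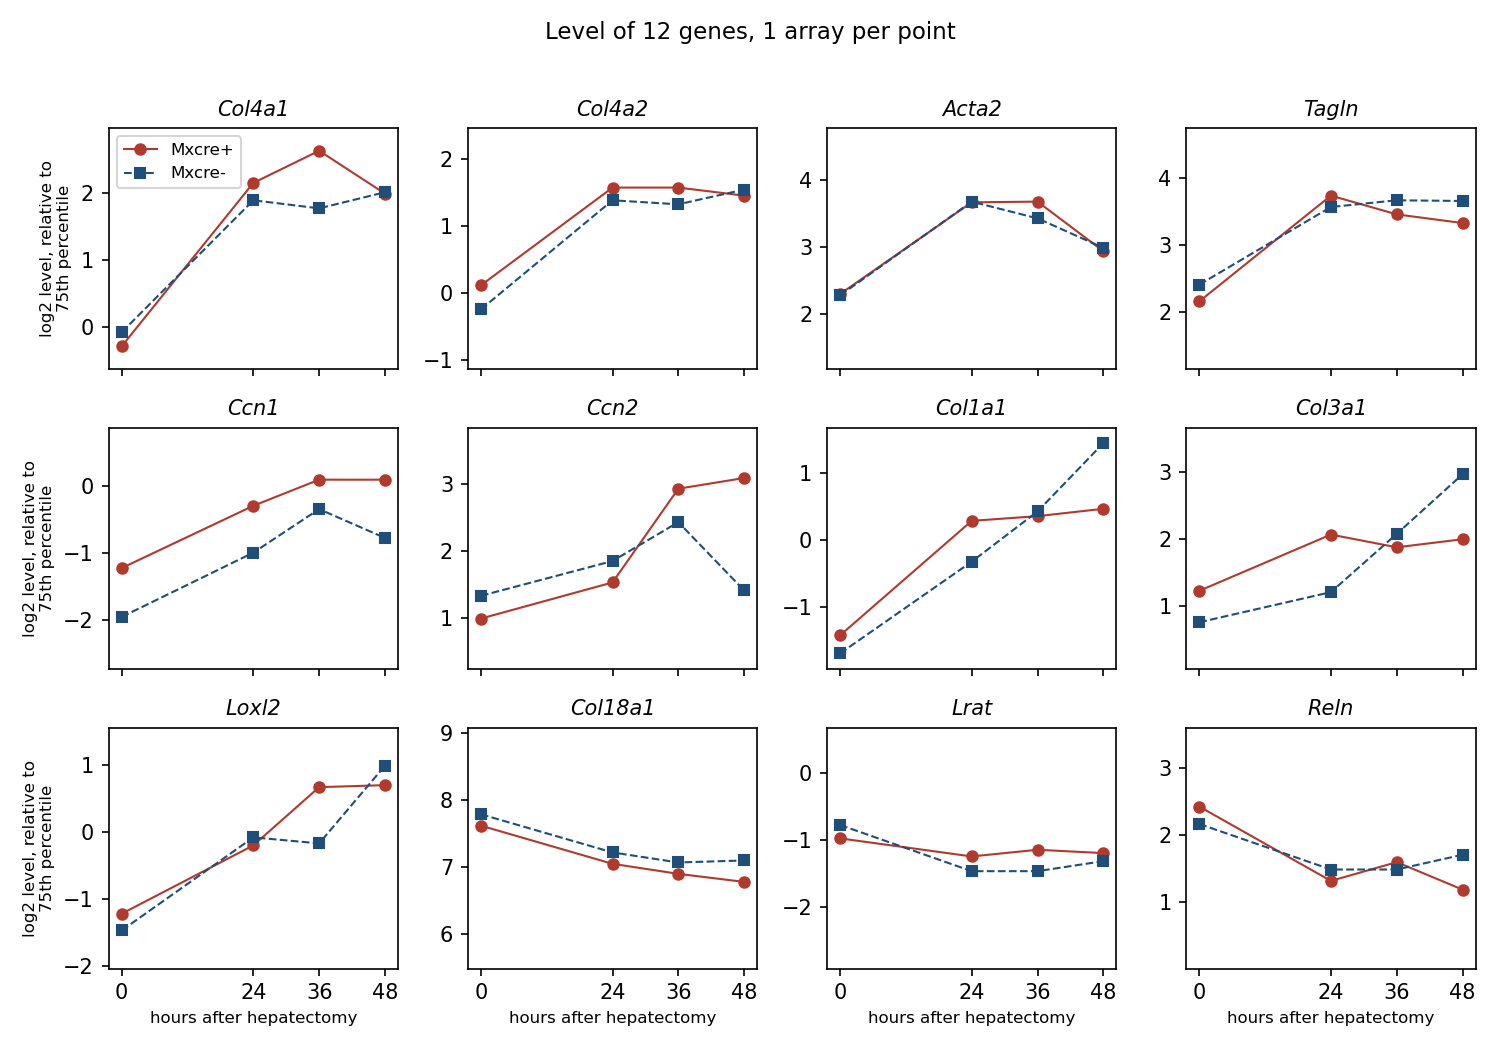
Level of 12 of the genes against hours after hepatectomy, 1 array per point, Mxcre+ as red circles and Mxcre- as blue squares; each panel spans the same number of log2 units. Col4a1, Col4a2, Acta2 and Tagln step up by 24 h in both genotypes, while Col1a1 and Col3a1 at 48 h stand at 0.47 and 1.99 in Mxcre+ livers, against 1.45 and 2.96 in Mxcre- livers.

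In the test of any change over the 4 times the 10 genes called were Thbs1, Col4a2, Acta2, Ccn1, Col4a1, Tagln, Vim, Loxl2, Col18a1 and Col5a2, with limma adjusted p of 0.0207, 0.0238, 0.0253, 0.0299, 0.033, 0.0334, 0.0359, 0.0456, 0.0464 and 0.0467 in that order. The p of Thbs1 rests on levels that were not above background at 0 h or on any Mxcre+ array. Leaving out 1 array left 0 to 2 of them, with 0 for any 0, 24 or 48 h array, 2 without the Mxcre- 36 h array and 1 without the Mxcre+ 36 h array, and the Y-linked covariate left 0.

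Between genotypes no member was called when the 4 times were averaged (0 of 37, against 0% of all genes). An unadjusted p under 0.05 was reached by 2 members, against 931 of 14141 genes. Ccn1 had the smallest p, at 0.69 ± 0.10 (SE, limma adjusted p = 0.751), and was the 1 member higher in Mxcre+ livers at every time, against 7.02% of all genes, by 0.73, 0.70, 0.44 and 0.87 at 0, 24, 36 and 48 h. Col18a1, at -0.21 ± 0.08 (SE, adjusted p = 0.751), was lower in Mxcre+ livers at every time, and with Thbs1 2 members were so, against 9.04% of all genes. Thbs1 had the second smallest p, but it was not above background on any Mxcre+ array, and its fitted value of -0.47 ± 0.13 (SE, adjusted p = 0.751) was -0.26 with the deposited matrix and -0.01 with normexp correction. Des, Fbn1 and Col4a2 came next, at 0.21 ± 0.12, 0.30 ± 0.17 and 0.17 ± 0.11 (SE, adjusted p = 0.761, 0.761 and 0.764). The second Fbn1 probe, above background on 7 arrays, gave -0.25. Of second probes above background on all arrays, 6 of 13 had the same sign as the main probe between genotypes, against 12 of 13 in each comparison with 0 h, where Col5a1 was the exception.

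At single times the genotypes can be compared by size alone, since each side is 1 array. No member differed by 2-fold at 0 h, where 1.18% of all genes above background on both arrays were 2-fold higher and 2.57% 2-fold lower. None did at 24 h, against 0.793% and 1.19%, or at 36 h, against 2.24% and 2.32%. At 48 h 1 member, Ccn2, was 2-fold higher in Mxcre+ livers, against 2.5%, and none was 2-fold lower, against 3.16%. The median difference over the 35 or 36 members above background on both arrays was 0.14, 0.17, 0.25 and -0.23 at 0, 24, 36 and 48 h, beside -0.01, 0.01, -0.02 and -0.03 over all genes. Members higher in Mxcre+ livers numbered 22 of 35, then 25, 27 and 8 of 36 at the 4 times, against 48.3%, 52.2%, 47.6% and 46.8% of all genes.

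At 48 h the collagens stood lower in Mxcre+ livers. This grouping of the 12 collagen genes was made after their values were seen. At 48 h all 12 were lower in Mxcre+ livers, by a median difference of -0.46, while 9, 10 and 6 of them were higher at 0, 24 and 36 h. Of the 25 other members 17 were lower in Mxcre+ livers at 48 h, with a median of -0.17, while 14, 15 and 21 were higher at 0, 24 and 36 h, and no test compared the 2 sets. With centring on the array median or the mean of all probes Col4a1, and with normexp correction Col6a1, was higher in Mxcre+ livers at 48 h, which left 11 of 12 lower. Col3a1 had levels of 1.22, 2.06, 1.87 and 1.99 at 0, 24, 36 and 48 h in Mxcre+ livers, against 0.75, 1.20, 2.07 and 2.96 in Mxcre- livers. Col1a2 had levels of 1.82, 2.09, 2.24 and 2.26 in Mxcre+ livers, against 1.44, 1.75, 2.30 and 3.15 in Mxcre- livers. For Col1a1, Col1a2 and Col3a1 the Mxcre+ level was above the Mxcre- level at 0 and 24 h and below it at 36 and 48 h, reaching -0.98, -0.90 and -0.97 at 48 h. The differences at 36 h were small, at -0.06, -0.06 and -0.21. With centring on the array median Col1a1 and Col1a2 were higher in Mxcre+ livers at 36 h, and with the mean of all probes Col3a1 was, while Col1a1 and Col3a1 were then not higher at 0 h. From 36 to 48 h 6 of 12 collagens were higher in Mxcre+ livers, against 48.6% of all genes, with a median of 0.00. In Mxcre- livers 12 of 12 were, against 47% of all genes, with a median of 0.51. The Mxcre- rises ran from 0.02 for Col18a1 to 1.32 for Col15a1. Over all genes the medians were -0.01 in Mxcre+ and -0.02 in Mxcre- livers. Each of these values rests on single arrays.

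Ccn2 stood higher in Mxcre+ livers at the late times. Its levels were 0.99, 1.53, 2.93 and 3.09 at 0, 24, 36 and 48 h in Mxcre+ livers, against 1.33, 1.85, 2.43 and 1.41 in Mxcre- livers. At 48 h it was 3.2-fold higher in Mxcre+ livers (1.68 on the log2 scale), while at 0 and 24 h it was lower there, by 0.34 and 0.32. The time at which a gene was highest also differed in number. In Mxcre+ livers 9 of 37 genes were highest at 48 h and 13 at 36 h, against 18.4% and 21.1% of all genes. In Mxcre- livers 19 were highest at 48 h and 5 at 36 h, against 20.4% and 19.2% of all genes.

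**Figure D4:**
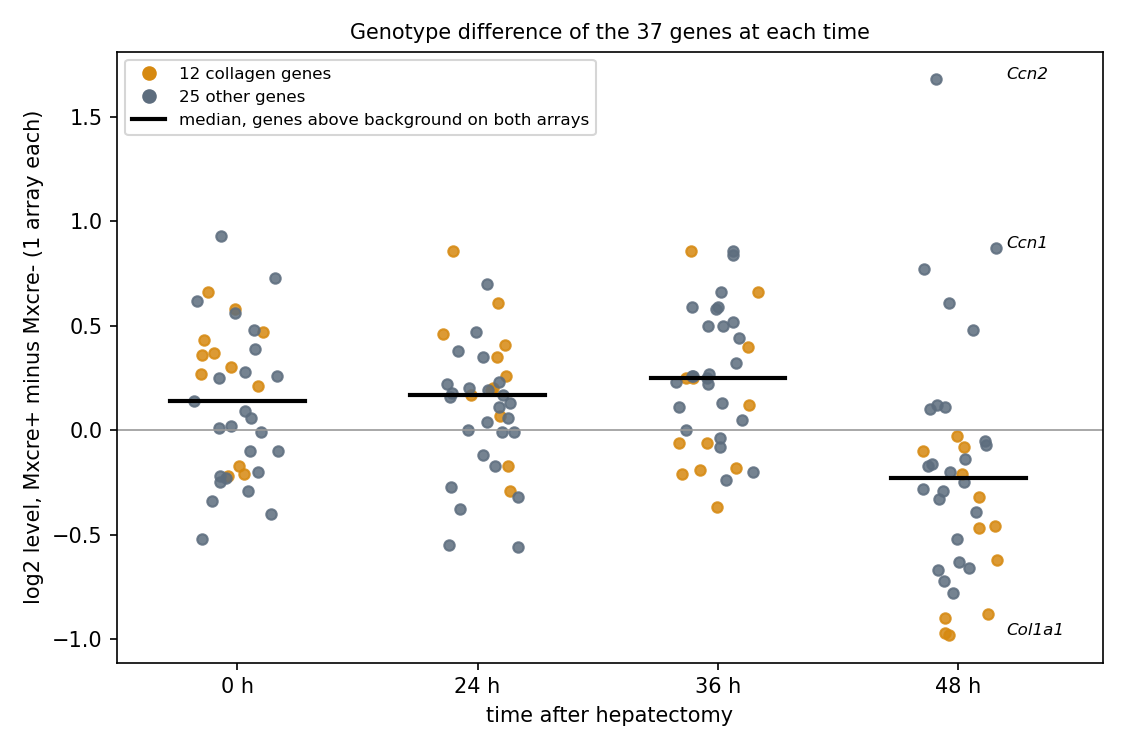
Log2 level in the Mxcre+ liver minus that in the Mxcre- liver at each time for the 37 genes (points, 12 collagens in orange and 25 other genes in grey), with horizontal jitter; bars are medians over the genes above background on both arrays. The medians are 0.14, 0.17, 0.25 and -0.23, all orange points lie below 0 at 48 h, and Ccn2 is at 1.68.

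Whether the genotype difference changed was tested in models with 2 residual degrees of freedom. For the later times against 0 h, 0 of 37 members were called, against 0.17% of all genes. An unadjusted p under 0.05 was reached by 2 members, against 945 of 14141 genes. The smallest p values belonged to Mmp14, at 0.88 ± 0.26, Col6a1, at -0.70 ± 0.25, Mmp2, at -1.05 ± 0.51, and Lrat, at 0.42 ± 0.21, with Lum at -0.75 ± 0.41 and Col6a2 at -0.47 ± 0.30 (SE, limma adjusted p = 0.676 to 0.904). For 36 and 48 h against 0 and 24 h, 0 of 37 were called, against 0% of all genes. An unadjusted p under 0.05 was reached by 6 members, against 1196 of 14141 genes. Timp3, an inhibitor bound to the matrix, had a change of 0.88 ± 0.18, Loxl1 one of -0.68 ± 0.15 and Col3a1 one of -1.26 ± 0.35 (SE, adjusted p = 0.575 for each). Postn was at 0.74 ± 0.21, Col6a2 at -0.56 ± 0.16 and Ccn2 at 1.42 ± 0.46 (SE, adjusted p = 0.575, 0.578 and 0.585).

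Other measures moved with the genotype at the late times, and their part in these differences was not tested. The Y-linked genotype difference was -5.10 at 36 h and -5.86 at 48 h, as the median of 4 genes, so that in those arrays it cannot be told apart from genotype. Neutrophil markers had a median genotype difference of -2.99, -0.91, 1.36 and 1.82 at 0, 24, 36 and 48 h over 11 genes, 8 of 12 listed genes being above background on all arrays. Kupffer cell and macrophage markers had -0.73, -0.48, 0.83 and 0.26 over 13 genes. Markers of stellate cells stood at 0.12, 0.08, 0.27 and -0.21 over 18 genes, with 4 higher in Mxcre+ livers at 48 h, and those of portal fibroblasts and mesothelium at 0.18, -0.08, -0.24 and -0.23 over 11 genes. Endothelial markers stayed between -0.13 and 0.12 over 14 genes and hepatocyte markers between -0.23 and 0.05 over 10. With time, markers of cholangiocytes were called higher for 3 of 6 genes at each later time, and those of T, NK and B cells lower for 4, 9 and 7 of 14.

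Genes outside the list that serve the same matrix were counted in lists chosen with earlier results of these data known. The counts are to be read against the shares of all genes called higher (4.43%, 7.83% and 8.13% at 24, 36 and 48 h) and lower (5.26%, 8.64% and 9.6%). Between genotypes 0 genes of any list were called, nor in either test of a changed genotype difference, nor at 48 h against 36 h. Targets of Yap and of serum response factor were called higher for 9, 10 and 9 of 20 genes (45%, 50% and 45%) at 24, 36 and 48 h, and lower for none, with medians of 1.00, 1.08 and 0.71. Among them the transcription factor gene Egr1 was 3.45 ± 0.31 higher at 24 h and Tpm2, a tropomyosin, 1.45 ± 0.16 (SE, adjusted p = 0.0179 and 0.0227). Other matrix proteases and their regulators were called higher for 5 of 18 genes (27.8%) at each time, and lower for 1 at 36 h. Adamts1, which cuts proteoglycans, was 1.38 ± 0.21 higher at 24 h (SE, adjusted p = 0.0306). Adamts4, called at an adjusted p of 0.035, was 1.59-fold higher with the 0 h arrays set at the background level. That value is no firm lower bound, since 1 of the 2 arrays at 24 h and neither 0 h array was above background.

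Other structural matrix genes were called higher for 2, 2 and 4 of 26 genes (7.69%, 7.69% and 15.4%), with none lower and medians of -0.03, -0.11 and 0.03. Nid1, a basement membrane protein that ties laminin to collagen IV, was 2.75 ± 0.31 higher at 24 h, and Emilin1 0.71 ± 0.14 (SE, adjusted p = 0.0227 and 0.0471). Nid1 had levels of 0.54, 3.03, 3.34 and 3.42 at 0, 24, 36 and 48 h in Mxcre+ livers, against 0.44, 3.44, 2.95 and 2.58 in Mxcre- livers, a step at 24 h like that of Col4a1. Collagen processing enzymes were called higher for 2, 1 and 1 of 16 genes (12.5%, 6.25% and 6.25%) and lower for none. P4hb, a subunit of prolyl 4-hydroxylase, was 0.89 ± 0.11 higher at 24 h and P3h1, a prolyl 3-hydroxylase, 0.90 ± 0.13 (SE, adjusted p = 0.0239 and 0.0298).

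Signals upstream of the matrix were counted in the same way. Of 5 PDGF pathway genes, 2 were called higher and 1 lower at 24 h, 1 higher at 36 h, and 2 higher and 1 lower at 48 h. Pdgfa, a PDGF chain, was 1.90 ± 0.17 higher at 24 h, and Pdgfrl was at -1.27 ± 0.21 (SE, adjusted p = 0.0179 and 0.0346). Of 20 TGF beta pathway genes, 1 was called higher and 1 lower at 24 h, then 1 and 2 at 36 h, then 0 and 1 at 48 h, shares of 0% to 10%. Tgfb3, a TGF beta ligand, was at 0.84 ± 0.17 and Ltbp4, which binds latent TGF beta, at -0.83 ± 0.17 at 24 h (SE, adjusted p = 0.048 and 0.0485). Of 14 integrin genes 1 was called higher at 24 h, 0 at 36 h and 1 at 48 h. Itgb6, whose product activates latent TGF beta in epithelia, had levels of -6.93, 0.01, -1.73 and -3.63 at 0, 24, 36 and 48 h in Mxcre+ livers, against -3.96, -0.08, -2.24 and -1.40 in Mxcre- livers, with 1 of the 2 arrays at 0 h above background (adjusted p = 0.0372 at 24 h). Itgav, its partner chain, was at 0.42 ± 0.14 (SE, adjusted p = 0.123).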

How the data were processed

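RNA of mouse liver was hybridised to 8 Agilent 1-colour arrays. Per the file headers, the processed signal deposited for each spot is a fluorescence intensity from Feature Extraction 10.7.3.1 (10.7 per the submitters' processing notes), background-subtracted and not normalised between arrays. The deposited matrix holds log2 values with a median of 5.51 in every column. The lowest correlation of a column with the log2 signal of the matching array was 0.9994, across probes. The matrix was read as the same signal normalised between arrays, in an unstated scale, and used as an alternative. These values do not tell quantile normalisation from another scaling. From the intensities, log2 signal minus the 75th percentile of each array was computed. Control and outlier spots and 118 of 41174 probes were left out; 26839 probes matched 18316 genes of RefSeq, 6502 with several probes. Genes well above background on at least 2 arrays were tested (14141). Each array had 60.2% to 66.0% of spots well above background, and the number of arrays limits the precision. Tests used limma 3.58.1 in R 4.3.3, checked on simulated data.

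The members and gene lists were chosen with earlier results of these data known. All members were accounted for by role. A difference with its SE was printed for each member called, up to 15 per comparison, or for the 6 of smallest p where fewer were called. From each pathway list the 2 genes of smallest p at 24 h were named. Lists of cell type markers were treated likewise, as counts and medians: erythroid markers had 1 of 3 called higher at 24 h, 1 lower at 36 h and none at 48 h, macrophage markers 1 of 13 lower at 24 and 36 h, endothelial markers 2 of 14 lower at each time and 2 and 1 higher at 36 and 48 h, fibroblast markers 2 of 11 higher at each time and 1 lower at 48 h, hepatocyte markers 1 of 10 lower at 24 h, and neutrophil and Y-linked genes none. Alternatives changed the scaling, the background correction, the filter, the probe rule, the variance trend, the Y-linked covariate, the slide and the arrays used.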

Additional observations from a re-analysis of the deposited data

Results flagged for a closer look

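For 10 of the 37 genes, against 16.3% of all genes tested, the genotype difference had one sign at both 0 and 24 h and the other at both 36 and 48 h. None of these changes was called, and each time had 1 array per genotype. Of these 10, 7 showed it with centring on the array median (without Col1a1, Col1a2 and Dcn), 8 with normexp correction (without Col6a1 and Dcn), 9 with the deposited matrix (without Dcn) and 8 with the mean of all probes (without Col1a1 and Col3a1). The difference at the late times minus that at the early times was -0.96 for Col1a1, -0.84 for Col1a2 and -1.26 for Col3a1 among the fibrillar collagens. It was -0.55 for Col6a1, -0.56 for Col6a2 and -0.68 for Loxl1. It was positive for Timp3, at 0.88, Dcn, at 0.39, Postn, at 0.74, and Ccn2, at 1.42, which were lower in Mxcre+ livers early and higher late. The late arrays lay on the other slide, and the Y-linked level differed between the genotypes on them, so genotype at these times cannot be told apart from that level.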

How the results depend on the processing

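Directions of single members were checked only for those called in a comparison, or for those of smallest p where few were called. Among these, directions held in all alternatives run except for 3. With the Y-linked level as a covariate the late change of the genotype difference turned to -2.47 ± 2.17 for Ccn2, 0.17 ± 2.29 for Col3a1 and 0.13 ± 1.1 for Col6a2 (SE). In the main setting the SE of these changes were 0.46, 0.35 and 0.16. On the late arrays the Y-linked level goes with genotype, so that fit can hardly separate them and does not settle a sign. More members than these 3 changed sign there. In that fit the late change was positive for 29 of 37 members, with a median of 1.13. In the main setting it was positive for 13, with a median of -0.2. Counts of called members depended on the setting. At 24 h, 8 became 5 with no filter, 14 with genes above background on all 8 arrays, 14 with a variance trend, 0 with the Y-linked covariate and 0 to 5 with 1 array left out. At 36 h, 13 became 8 with normexp correction, 7 with no filter, 8 with the Y-linked covariate and 0 to 10 with 1 array left out. At 48 h, 13 became 8 with the Y-linked covariate and 0 to 11 with 1 array left out. For any change, 10 became 3 with no filter, 0 with the Y-linked covariate and 0 to 2 with 1 array left out. Over all genes, 1370 calls at 24 h became 580 of 18316 with no filter and 2145 with a variance trend. They became 2048 of 12125 with genes above background on all 8 arrays, which held 35 members. At 36 h, 2329 became 2503 with normexp correction, 990 with no filter and 1033 with the Y-linked covariate. At 48 h, 2507 became 1195 with that covariate. With 1 array left out 2 residual degrees of freedom remain, and the cause of the other changes was not tested. Members 2-fold apart between genotypes became 1 at 0 h with the deposited matrix and 4 at 48 h with the mean of all probes. In all, 101 counts stayed within 1.5 times, 36 were lower, 2 higher and 2 moved. Most of the 101 were counts of 0 that stayed 0. All 36 lower counts fell in the comparisons with 0 h or the test of any change. There they outnumbered the counts that stayed. Of single differences called in the main setting 300 kept the call and 239 lost it. Centring on the median raised the median difference of all genes by 0.18 at 36 h and 0.16 at 48 h. The files hold no mean signal, so normexp was run on the median signal, an alternative chosen after seeing the data. Signal near background limits Thbs1 and Col5a2. The additive model already compares the genotypes within each time, and the labels give no replicate numbers for a further block.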
